A study of Mus musculus with 4 samples.

Results

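The 37 genes described here encode proteins that copy DNA, supply nucleotides, drive the cell cycle or separate chromosomes, and they were taken by symbol from a table of 54532 genes, where all 37 were found. They were measured by RNA sequencing of pancreatic islets, the clusters of endocrine cells that make insulin and glucagon, from male C57BL/6 mice aged 10 to 12 weeks. Wild-type islets gave 2 libraries, and islets with a miR-29a/b-1 transgene, overexpressed in pancreatic beta cells only, gave the other 2. No source used here gives the promoter of the transgene, the number of mice behind a library or whether islets were pooled. The spread behind each p-value is therefore that of 4 libraries and may be technical. Libraries carry the number 1 or 2 after their titles, and for each gene the value of number 1 is given before that of number 2. Levels are FPKM, fragments per kilobase of gene length scaled to library size, and the reads behind each value were recovered from it.

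Cells that divide pass through G1, S phase, in which DNA is copied, G2 and mitosis. In resting cells the genes of S phase are held down by retinoblastoma proteins on E2F sites, and those of G2 and mitosis by the DREAM complex on a promoter element named CHR (cell cycle genes homology region). Adult mouse beta cells divide rarely, so these transcripts are scarce in islets and can come from a few dividing cells of any type. Pcna also serves DNA repair in cells that do not divide. MicroRNAs such as miR-29a and miR-29b pair with messenger RNAs through a short seed and lower their levels or translation. The genotypes are compared to see how transcripts of the cell cycle stand in islets with the transgene. The genes of the hairpins, Mir29a and Mir29b-1, were listed at 0 FPKM in both transgenic libraries, and Mir29a at 1.31 FPKM in wild type 2 only. Libraries of long RNA do not measure mature microRNAs, so these rows do not check the genotype labels.

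The mature forms of the transgene's microRNAs are shown for the seed against which the proliferation genes were searched, with bases 2 to 8 in capitals. Sequences are from RefSeq, and positions are on GRCm38.p6.
mmu-miR-29a-3p (chr6:31062673-31062694, minus strand): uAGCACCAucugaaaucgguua
mmu-miR-29b-3p (chr6:31063025-31063047, minus strand): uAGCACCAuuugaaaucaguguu

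The 7 bases that pair with this shared seed, TGGTGCT, were looked for in the longest annotated 3′ end after the stop codon of each gene (GENCODE M21, at least 50 bases). Of the 37 proliferation genes, 5 held a match (13.5%), against 2083 of 13740 genes with a mean of at least 0.1 FPKM (15.2%). The median length searched was 809 bases in the proliferation genes and 1141 in all. A match is a description of letters and not a shown target. The 5 matches are given with the bases around them and the match in capitals (GRCm38).
Aurkb (chr11:69051346-69051372, plus strand): tctagcactacaTGGTGCTcacgacca
Ccna2 (chr3:36566013-36566039, minus strand): attggttaacatTGGTGCTgccaactg
Cdk2 (chr10:128698414-128698440, minus strand): cttactgttttcTGGTGCTgactgcta
Cenpf (chr1:189642462-189642488, minus strand): atgctgtgtgtgTGGTGCTcaggtctc
Mybl2 (chr2:163083457-163083483, plus strand): ttgggaagttccTGGTGCTaatagaac

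Only the match in Mybl2 was followed by an A, the base opposite position 1 of the microRNA. These 5 genes are described with the others of their role below.

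The proliferation genes were scarce in every library. Their mean FPKM per gene was 1.34 and 1.15 over the wild-type libraries against 1.41 and 1.26 over the transgenic ones, and the median gene lay at 0.581 and 0.552 against 0.664 and 0.587. Together they took 4565 reads of 23730364 in wild type 1 and 4429 of 27080907 in wild type 2, which is 0.0192% (95% exact binomial interval 0.0187 to 0.0198) and 0.0164% (0.0159 to 0.0168). In transgenic 1 and 2 they took 5076 of 23654135 and 3888 of 21670854, or 0.0215% (0.0209 to 0.0221) and 0.0179% (0.0174 to 0.0185). Intervals cover counting error only. A gene of 1 kilobase with no read could still lie at up to 0.116 to 0.143 FPKM (3 reads). No proliferation gene was without reads, and the lowest count was 3, for Aurkb in transgenic 2. The mean over the libraries was at least 1 FPKM in 10 genes and below it in 27.

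Levels differed far more between the genes than between the genotypes. Pcna, the sliding clamp of DNA polymerases, had a mean of 18.5 FPKM over the 4 libraries, and Mcm7, a subunit of the replicative helicase, came next at 3.63. The 17 genes of G1 and S phase had a median gene mean of 1.04 FPKM and the 20 genes of G2 and mitosis one of 0.349. Of the labelled tissue, 10 beta cell markers summed to 223828 and 286857 FPKM in wild-type and 151540 and 271466 in transgenic libraries. Ins2 alone gave 152363 and 211742 of these against 89340 and 200260, so the sums mostly follow Ins2. Among the 10, transgenic libraries lay above without overlap in 2 (Mafa and Nkx6-1) and below in 2 (Ins1 and Iapp). Of all genes with a mean of at least 5 reads, 11.8% lay above and 10.8% below. Of the other cell types an islet preparation can hold, 10 endothelial markers summed to 87.0 to 133 FPKM, 12 macrophage and dendritic cell markers to 130.2 to 168, and 11 lymphocyte markers to 4.23 to 7.85, with Cd3e and Ncr1 at 0 reads in every library. In whole islets fewer cells of a type cannot be told apart from less RNA per cell.

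**Figure D1:**
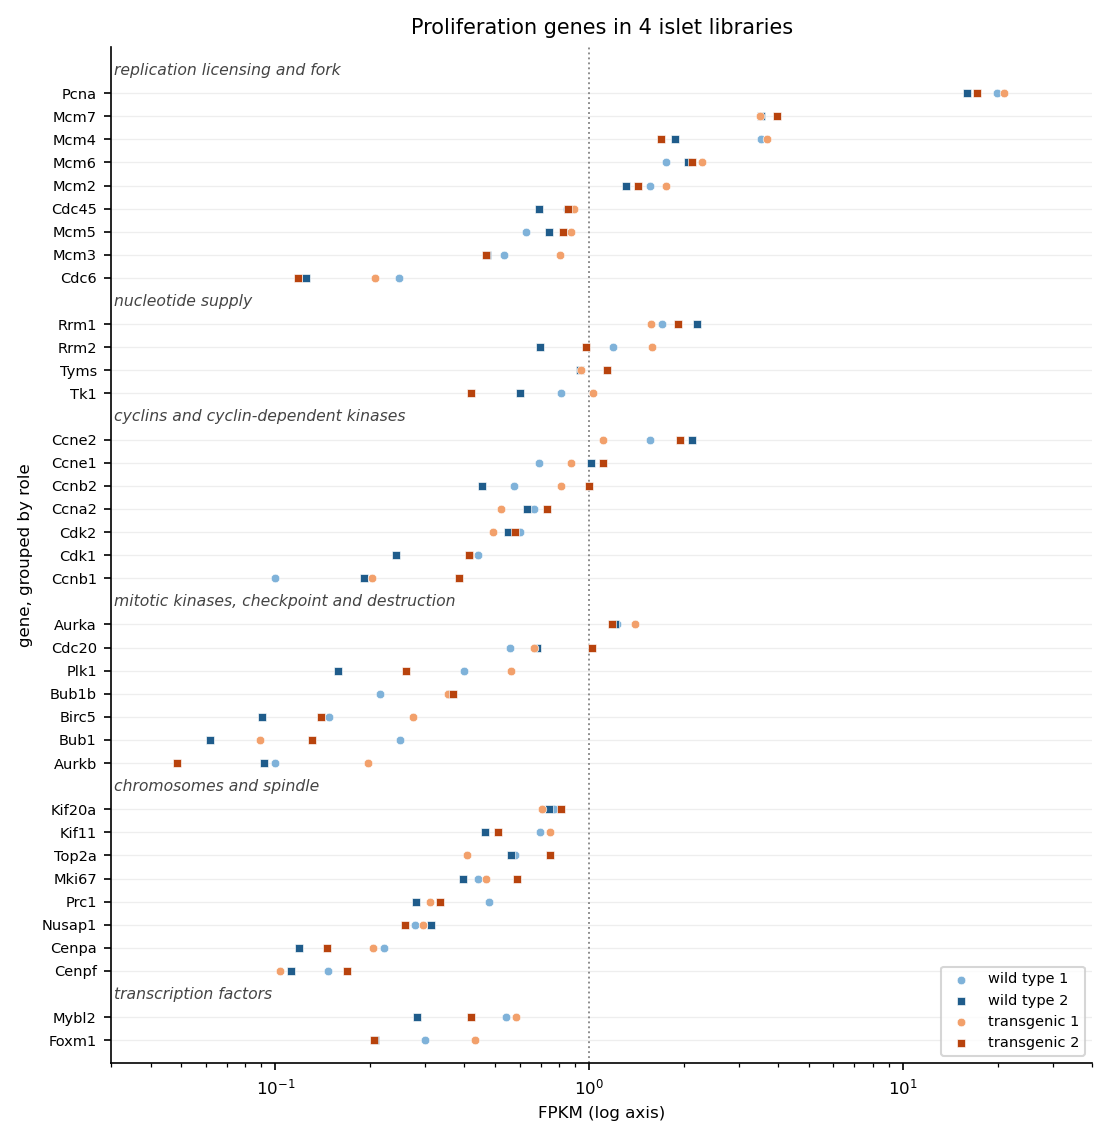
FPKM of each of the 37 proliferation genes in the 4 libraries, on a log axis, grouped by role and sorted by mean within a role. Blue marks are wild type, orange and brown marks transgenic, circles number 1 and squares number 2, and the dotted line is 1 FPKM. Pcna stands near 20 FPKM, the median gene between 0.552 and 0.664.

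No proliferation gene passed the test between genotypes. Of the 37, 11 reached 1 FPKM in at least 2 libraries and were compared, none of them only through the transgenic libraries, and limma on log2(FPKM + 1) called 0 of them, as it called 0% of all 12716 genes compared. None of the 11 had an unadjusted p under 0.05, against 83 of all genes compared, and the adjusted p was 1.00 for each. Their median log2 fold change was 0.06, beside 0.01 over all genes compared, with 8 of 11 above 0. With the limit lowered to 0.1 FPKM and a pseudocount of 0.1, which admits 36 of the 37 (all but Aurkb), the test again called 0, none had an unadjusted p under 0.05, and the median was 0.10 beside 0.00. In voom on the recovered reads, 36 genes were compared and 0 were called, also with 0 at an unadjusted p under 0.05.

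Where the genotypes of a proliferation gene did not overlap, the transgenic libraries were the higher ones. In 6 of the 37 (16.2%) both transgenic libraries lay above both wild-type ones, and in 0 below. Of the 18511 genes with a mean of at least 5 reads, 11.8% lay above and 10.8% below in this way. Within the library numbers, 16 of 37 (43.2%) were higher in transgenic islets in both, 3 (8.11%) lower in both and 18 went different ways, against 30.1% and 28.4% of the 18511 genes. These shares moved with scaling. On reads per library total, 8 of the 37 lay above and 0 below, against 15.3% and 7.59% of the wider set. On that scale Bub1b, Cdc20 and Mcm7 were also separate and Cdc45 was not. There 21 were higher and 3 lower in both numbers, against 39.1% and 19.3%. The median ratio of transgenic to wild-type FPKM over the 37 was 1.07 in number 1 and 1.11 in number 2, beside 1.01 and 1.00 over the wider set. The genes share the same 4 libraries, so these counts are descriptions and carry no test.

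The summed FPKM of all 37 was 49.5 and 42.5 over wild-type and 52.3 and 46.7 over transgenic libraries. The genotypes overlapped, and the means of 46.0 ± 4.89 and 49.5 ± 3.98 (SD, n = 2) differed by less than either SD. The transgenic to wild-type ratio was 1.06 in number 1 and 1.10 in number 2. The 17 genes of G1 and S phase summed to 40.9 and 35.2 against 43.2 and 37.2, with overlap. The 20 genes of G2 and mitosis summed to 8.60 and 7.37 against 9.17 and 9.46, without overlap on the deposited scale, which makes the number 1 ratio 1.07 and the number 2 ratio 1.28. The sums are given as descriptions and were not tested. With 2 libraries in either genotype, the smallest 2-sided p that exact permutation allows is 0.333.

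**Figure D2:**
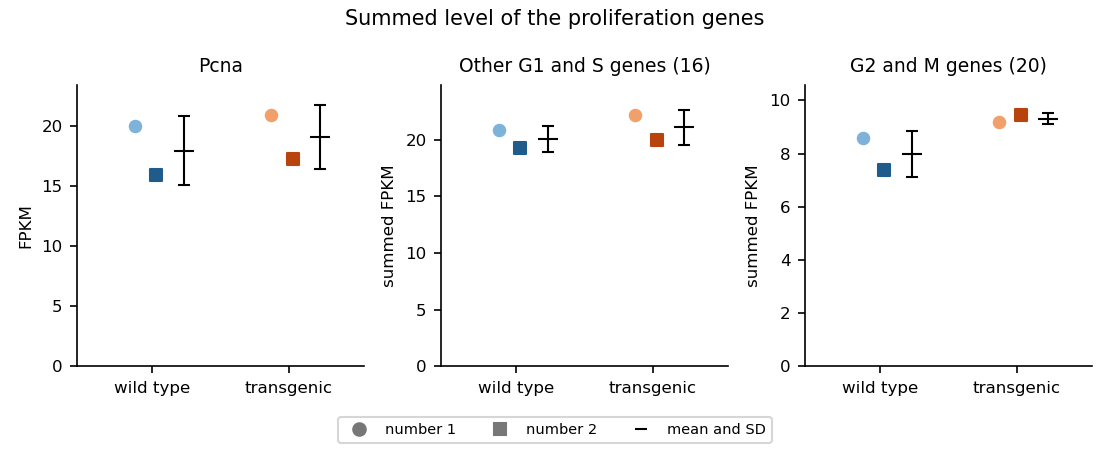
FPKM of Pcna (left), and summed FPKM of the 16 other genes of G1 and S phase (middle) and of the 20 genes of G2 and mitosis (right), per library by genotype. Circles are number 1, squares number 2, and the black mark with bars is the mean and SD of 2 libraries. Only in the right panel do both transgenic libraries (9.17 and 9.46) lie above both wild-type ones (8.60 and 7.37).

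Genes of replication licensing and the fork load and run the helicase that opens DNA. Pcna (chr2:132249162-132253314, GRCm38) lay at 19.99 and 15.9 FPKM in the wild-type libraries, and the transgenic ones had 20.96 and 17.2. The log2 fold change was 0.09 ± 0.19 (SE, 2 libraries per genotype, limma adjusted p = 1.00). Its libraries ordered by number and not by genotype. Mcm7 lay at 3.52 and 3.54 against 3.51 and 3.97, and Mcm2 at 1.57 and 1.31 against 1.75 and 1.43. Mcm4 lay at 3.54 and 1.87 against 3.67 and 1.70, so that both libraries numbered 1 were high and both numbered 2 low.

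In 3 of the 9 genes of this role the genotypes did not overlap on the deposited scale. Mcm6 (chr1:128331590-128359664) lay at 1.75 and 2.06 FPKM in wild-type libraries, against 2.29 and 2.13 in transgenic ones, with a log2 fold change of 0.15 ± 0.15 (limma adjusted p = 1.00). Mcm5 (chr8:75109569-75128439), another helicase subunit, lay at 0.630 and 0.744 against 0.874 and 0.822, or 60 and 77 against 90 and 69 reads. Cdc45 (chr16:18780447-18811987), which joins the helicase when it starts, lay at 0.848 and 0.693 against 0.896 and 0.855. The lowest transgenic value exceeded the highest wild-type value by little in Mcm6 and Cdc45, and the transgenic to wild-type ratio within numbers ran from 1.04 to 1.39 over these 3 genes. Mcm3 lay at 0.536 and 0.473 against 0.806 and 0.469. Cdc6, which loads the helicase, was the scarcest of the role, at 0.248 and 0.125 FPKM (31 and 17 reads) against 0.208 and 0.118 (28 and 13 reads), lower in transgenic islets in both numbers.

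The 4 genes of nucleotide supply overlapped between genotypes. Rrm1, the large subunit of ribonucleotide reductase, lay at 1.71 and 2.21 FPKM in wild-type libraries, against 1.57 and 1.92 in transgenic ones, lower within each number. Rrm2, the small subunit that cells make in S phase, lay at 1.19 and 0.696 against 1.58 and 0.979, higher within each number by 1.32 and 1.41 times, with a log2 fold change of 0.23 ± 0.25 (limma adjusted p = 1.00). The subunits of this enzyme thus differed in direction within numbers, which was not tested. Tyms, thymidylate synthase, lay at 1.14 and 0.937 against 0.943 and 1.14, and Tk1, thymidine kinase, at 0.814 and 0.601 against 1.03 and 0.421.

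Cyclins, which switch on cyclin-dependent kinases, held the proliferation genes with the largest ratios between genotypes. Ccnb1 (chr13:100778650-100786570), the cyclin that drives entry into mitosis, lay at 0.0993 and 0.192 FPKM in wild-type libraries, against 0.202 and 0.384 in transgenic ones. These are 10 reads (95% exact Poisson interval 4.80 to 18.4) and 21 (13.0 to 32.1) in wild type, and 22 (13.8 to 33.3) and 34 (23.5 to 47.5) in transgenic islets. Within the numbers the transgenic library was 2.04 and 1.998 times as high, and number 2 was 1.93 and 1.90 times as high as number 1, so the gap between numbers was about as wide as that between genotypes. Wild type 2 and transgenic 1 differed by a single read.

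Ccnb2 (chr9:70407692-70421547), the second mitotic B-type cyclin, lay at 0.575 and 0.453 FPKM in wild-type libraries, against 0.811 and 0.995 in transgenic ones, or 21 and 18 against 32 and 32 reads. The transgenic library was 1.41 and 2.19 times as high within the numbers. At the lower limit and pseudocount of 0.1 the log2 fold change was 0.71 ± 0.30 for Ccnb2 and 0.66 ± 0.45 for Ccnb1 (limma adjusted p = 1.00 for both). A copy of Ccnb2 annotated as a transcribed pseudogene, Ccnb2-ps, lay at 1.66, 2.05, 1.10 and 2.14 FPKM in the same order of libraries. Reads that match a gene and its copy alike cannot be told apart, and no source used here says how they were counted. Ccnb1-ps lay at 0.163, 0.0899, 0.0301 and 0.111 FPKM. Both cyclins are therefore uncertain.

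The other cyclins and kinases overlapped between genotypes. The E-type cyclins, which start S phase, went different ways within numbers. Ccne2 lay at 1.56 and 2.13 FPKM in wild-type libraries, against 1.11 and 1.95 in transgenic ones, a log2 fold change of -0.18 ± 0.24, and Ccne1 at 0.692 and 1.01 against 0.874 and 1.11, one of 0.11 ± 0.21 (limma adjusted p = 1.00 for both). Ccna2, the cyclin of S phase and G2, lay at 0.667 and 0.633 against 0.523 and 0.734. Its match to the miR-29 seed is shown above, and its transgenic values enclose the wild-type ones. Cdk1, the kinase that B-type cyclins switch on, lay at 0.442 and 0.242 against 0.417 and 0.415, and Cdk2, the kinase of E-type cyclins, which also holds a seed match, at 0.5995 and 0.552 against 0.493 and 0.582.

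The transcription factors of proliferating cells were higher in the libraries numbered 1. Mybl2, whose match to the seed is followed by an A, lay at 0.543 and 0.283 FPKM in wild-type libraries, against 0.586 and 0.421 in transgenic ones, higher in the transgenic library of each number. Foxm1, which switches on genes of G2 and mitosis, lay at 0.299 and 0.208 against 0.431 and 0.207, or 41 and 31 against 64 and 25 reads.

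Genes of mitotic kinases, the spindle checkpoint and its targets were scarce, and 6 of 7 had a mean under 1 FPKM. Aurka, the kinase of spindle poles, was the exception at 1.22 and 1.20 FPKM in wild-type libraries and 1.39 and 1.18 in transgenic ones (log2 fold change 0.05 ± 0.17, limma adjusted p = 1.00). Cdc20, which activates the complex that destroys cyclin B, lay at 0.561 and 0.681 against 0.664 and 1.02. Plk1, a kinase of mitotic entry, lay at 0.400 and 0.158 against 0.564 and 0.260. Bub1b, a checkpoint kinase, lay at 0.216 and 0.361 against 0.354 and 0.367. These 3 and Birc5 were higher in the transgenic library of both numbers, but no gene of this role had separate genotypes on the deposited scale. On reads per library total, Bub1b and Cdc20 did. The role as a whole summed to 2.90 and 2.65 FPKM against 3.54 and 3.15, without overlap, a ratio of 1.22 and 1.19 within numbers. Of the 6 roles it was the only one whose sums did not overlap. The sums of chromosomes and spindle (ratios 0.898 and 1.19) and of cyclins and kinases (0.956 and 1.18) went different ways within numbers. Those of the remaining roles were higher in the transgenic library of both numbers. Bub1 ran from 7 to 26 reads and differed in direction between numbers, with ratios of 0.356 and 2.12. Aurkb, which holds a seed match, had 7 reads in either wild-type library and 15 and 3 in the transgenic ones, and the exact Poisson intervals of the transgenic counts, 8.40 to 24.7 and 0.619 to 8.77, both overlap that of the wild-type count, 2.81 to 14.4.

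Genes of chromosomes and the spindle held 1 with separate genotypes. Mki67 (chr7:135689784-135716361), which encodes the Ki-67 antigen used to stain cycling cells, lay at 0.441 and 0.395 FPKM in wild-type libraries, against 0.470 and 0.587 in transgenic ones, or 106 and 103 against 122 and 124 reads. The ratio within numbers was 1.07 and 1.49, and the log2 fold change at the lower limit was 0.27 ± 0.31 (limma adjusted p = 1.00). Top2a, the topoisomerase that untangles chromosomes, lay at 0.581 and 0.565 against 0.409 and 0.750, with the transgenic values on either side of the wild-type ones. Kif20a, a kinesin of cell division, lay at 0.773 and 0.742 against 0.705 and 0.815, and Kif11, the kinesin that separates spindle poles, at 0.695 and 0.464 against 0.749 and 0.514. The other 4 genes, Prc1, Nusap1, Cenpa and Cenpf, had means between 0.133 and 0.352 FPKM and overlapped. Cenpf, the last of the genes with a seed match, lay at 0.147 and 0.112 against 0.103 and 0.170.

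**Figure D3:**
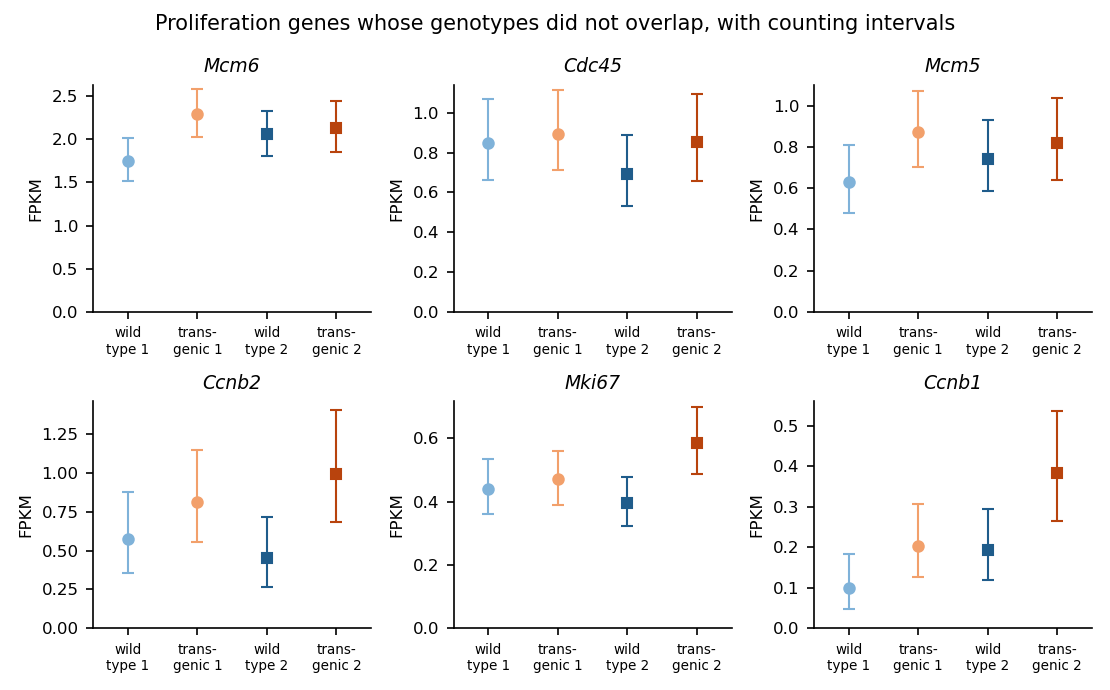
FPKM of the 6 proliferation genes whose genotypes did not overlap, in each library, with bars for the 95% exact Poisson interval of its reads. Axes start at 0. The intervals of same-numbered libraries overlap except in Mcm6 number 1 (2.01 against 2.03) and Mki67 number 2 (0.479 against 0.488, upper wild-type and lower transgenic bound).

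The promoters of these 6 genes are shown because they are the genes whose genotypes separated. The 250 bases before the RefSeq start are given 5′ to 3′ (GRCm38.p6). Capitals mark CHR elements (TTTGAA or TTCGAA), E2F elements (TTTCCCGC, TTTGGCGC, TTTCGCGC or TTTGCCGC) and CCAAT boxes, on either strand, and a run of capitals over 8 bases holds E2F matches of both strands that overlap.
Ccnb1 (chr13:100786487-100786736, minus strand): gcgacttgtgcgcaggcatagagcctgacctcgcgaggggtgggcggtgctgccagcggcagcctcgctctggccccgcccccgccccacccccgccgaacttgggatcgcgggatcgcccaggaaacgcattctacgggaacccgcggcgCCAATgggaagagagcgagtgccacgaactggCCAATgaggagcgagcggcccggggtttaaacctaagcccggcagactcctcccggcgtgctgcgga
Ccnb2 (chr9:70421555-70421804, minus strand): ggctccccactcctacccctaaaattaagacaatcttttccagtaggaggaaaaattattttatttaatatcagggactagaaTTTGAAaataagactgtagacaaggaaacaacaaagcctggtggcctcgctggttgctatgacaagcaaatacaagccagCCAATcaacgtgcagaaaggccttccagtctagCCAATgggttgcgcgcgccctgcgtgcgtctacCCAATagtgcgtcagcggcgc
Mki67 (chr7:135716380-135716629, minus strand): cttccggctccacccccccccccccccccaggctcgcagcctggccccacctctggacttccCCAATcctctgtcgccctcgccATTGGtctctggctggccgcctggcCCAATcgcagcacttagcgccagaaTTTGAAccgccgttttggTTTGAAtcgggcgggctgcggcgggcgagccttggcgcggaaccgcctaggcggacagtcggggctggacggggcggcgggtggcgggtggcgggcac
Mcm5 (chr8:75109259-75109508, plus strand): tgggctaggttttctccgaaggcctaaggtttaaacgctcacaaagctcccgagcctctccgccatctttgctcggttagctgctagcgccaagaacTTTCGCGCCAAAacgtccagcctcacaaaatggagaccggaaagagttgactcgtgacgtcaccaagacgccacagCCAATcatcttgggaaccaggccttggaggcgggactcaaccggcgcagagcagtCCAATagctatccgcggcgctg
Mcm6 (chr1:128359706-128359955, minus strand): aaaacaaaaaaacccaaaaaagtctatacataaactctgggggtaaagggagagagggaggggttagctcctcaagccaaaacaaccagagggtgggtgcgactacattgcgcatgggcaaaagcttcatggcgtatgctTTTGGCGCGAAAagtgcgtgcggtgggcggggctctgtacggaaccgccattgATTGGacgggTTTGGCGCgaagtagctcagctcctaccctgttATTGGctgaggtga
Cdc45 (chr16:18811973-18812222, minus strand): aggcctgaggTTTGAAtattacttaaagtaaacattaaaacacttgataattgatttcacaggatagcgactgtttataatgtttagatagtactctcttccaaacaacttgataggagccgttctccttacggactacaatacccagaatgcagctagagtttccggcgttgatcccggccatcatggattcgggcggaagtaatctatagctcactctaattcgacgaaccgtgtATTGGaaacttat

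The same letters were looked for in the windows of 300 bases that RefSeq starts give, 250 before and 50 after the start, for the 31 proliferation genes and 27025 genes in all with a window. Windows for Kif20a, Ccna2, Foxm1, Aurkb, Ccne2 and Mcm4 were not used here. Of the genes of G2 and mitosis, 13 of 16 held a CHR element and 1 (Cdk1) an E2F element. Of the genes of G1 and S phase, 3 of 15 held CHR and 6 held E2F, namely Cdc6, Cdk2, Mcm3, Mcm5, Mcm6 and Mcm7. Over all genes with a window, 21.7% held CHR and 2.61% held E2F. CCAAT boxes lay in 14 of 16 and 10 of 15, against 41.1% of all genes. Of the 6 genes with separate genotypes, Ccnb2, Mki67 and Cdc45 held CHR, Mcm5 and Mcm6 held E2F, and Ccnb1 held neither in its window. All 6 held CCAAT, as did 24 of the 31 proliferation genes with a window, so it does not set the 6 apart. The 6 were picked by their values in these same libraries, and what they share was not tested. A match is a description and not a bound site.

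The libraries also differed by number, but not alike in both genotypes. Number 2 was the higher in 10 of the 37 genes in wild type and in 17 in transgenic islets. Number 2 to number 1 ratios of the summed FPKM were 0.860 in wild type and 0.892 in transgenic islets. Over the genes of G2 and mitosis they were 0.857 and 1.03, so the direction differed there. Of the 37 genes, 16 (43.2%) were lower in both libraries numbered 2 than in both numbered 1, and 6 (16.2%) higher, against 31.0% and 31.2% of the 18511 genes with a mean of at least 5 reads. On reads per library total these counts were 18 and 3. The shares of all genes by number were not computed on that scale, so these 2 counts have no measure beside them. Number 2 to number 1 ratios of Plk1 were 0.395 in wild type and 0.460 in transgenic islets, and those of Mcm4 were 0.529 and 0.462. Rrm2 had 0.583 and 0.619, Cdc6 0.505 and 0.570, and Mybl2 0.522 and 0.719. Bub1b, Ccne2, Ccne1, Rrm1, Cdc20 and Mcm7 lay the other way, with ratios of 1.37 and 1.75 in Ccne2. Bub1 changed direction, with 0.248 in wild type and 1.47 in transgenic islets. The acinar cell markers moved with number too. Of 16, 15 were lower in both libraries numbered 2, none was at 0 reads in every library, and their summed FPKM was 5649 and 7635 in wild type 1 and transgenic 1 and 1196 and 2059 in wild type 2 and transgenic 2. Endothelial markers summed to 107 and 133 in number 1 and 87.0 and 104 in number 2. Plvap alone gave 45.4 and 66.0 of this in number 1 and 35.3 and 46.3 in number 2. Of the 10 endothelial markers, 5 were lower in both libraries numbered 2 and 2 higher. In each number the acinar and the endothelial sum were also higher in the transgenic library. Pecam1, Tek, Esam and Emcn went the other way in number 1. The part of these cells in the levels of the proliferation genes was not tested.

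**Figure D4:**
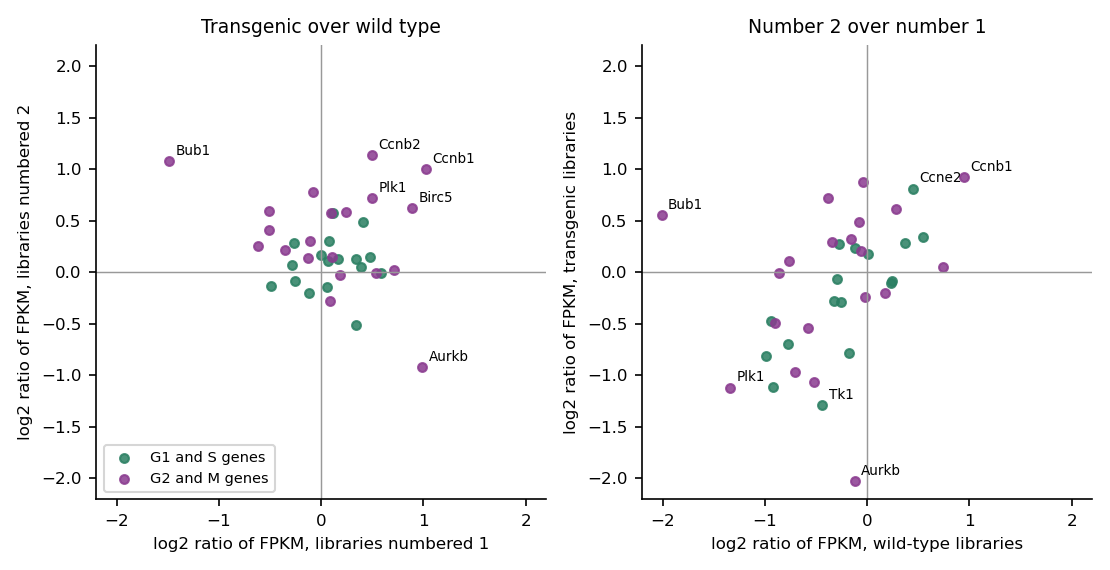
Log2 ratio of FPKM of each proliferation gene for transgenic over wild type in number 1 (x axis) and number 2 (y axis), left, and for number 2 over number 1 in wild-type (x axis) and transgenic (y axis) libraries, right. Green points are genes of G1 and S phase, purple points genes of G2 and mitosis. In the left panel 16 genes lie at upper right and 3 at lower left.

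Other genes of the cell cycle were also not called. Of 45 further genes of replication and S phase, 26 were compared, limma called 0, 0 had an unadjusted p under 0.05, and their median log2 fold change was -0.02 with 10 above 0. In 6 of the 45 the transgenic libraries lay above without overlap and in 6 below, where 11.8% and 10.8% of the wider set of 18511 genes did so. The wider set held genes with a mean of at least 5 reads, while this list and those that follow were counted without that limit. The 4 with the smallest p went both ways. Orc3, a subunit of the origin recognition complex, lay at 8.95 and 8.08 FPKM against 7.62 and 7.31, and Gins4, a part of the active helicase, at 8.73 and 11.04 against 7.45 and 9.49. Rpa2, which coats single-stranded DNA, lay at 2.59 and 2.71 against 1.996 and 2.67, and Pold2, a subunit of DNA polymerase delta, at 9.77 and 6.57 against 12.2 and 8.48. Of 55 further genes of mitosis, 15 were compared, 0 were called, 0 had an unadjusted p under 0.05, and the median was 0.04 with 9 above 0. In 9 of the 55 the transgenic libraries lay above without overlap and in 2 below, beside the same 11.8% and 10.8%. Incenp, a partner of Aurkb, lay at 1.35 and 1.04 FPKM in wild-type libraries, against 1.99 and 1.41 in transgenic ones, and Fzr1, which completes the destruction of cyclin B, at 5.67 and 6.02 against 7.09 and 6.65. Pttg1, which encodes securin, lay at 5.84 and 4.44 against 6.59 and 5.40, and Smc4, a condensin subunit, went the other way at 4.37 and 4.73 against 3.41 and 4.51. Of 30 genes of G1 control, E2F and the MuvB core of the DREAM complex, 23 were compared and 0 called, with a median of 0.03 and 1 at an unadjusted p under 0.05. In 4 of the 30 the transgenic libraries lay above without overlap and in 3 below, again beside 11.8% and 10.8%. The gene with an unadjusted p under 0.05 was E2f4, the E2F protein of DREAM in resting cells. It lay at 11.4 and 11.4 FPKM in wild-type libraries, against 15.7 and 15.8 in transgenic ones, a log2 fold change of 0.43 ± 0.13 (limma adjusted p = 1.00). Lin52, a MuvB subunit, lay at 5.20 and 5.84 against 4.86 and 3.61, and E2f1, an activator of S phase genes, at 3.77 and 3.85 against 4.39 and 4.89. Ccnd3, a D-type cyclin of G1, lay at 3.68 and 3.60 against 4.36 and 3.99. In these 4 the genotypes did not overlap, and none passed the test over all genes.

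Overlaps between genes limit single values. The table places 11 of the 37 genes over another protein-coding gene, in 10 of them only on the opposite strand, and no source used here says if counting took strand into account. Kif20a overlaps Cdc23, which lay at 4.33 and 5.80 FPKM against 4.59 and 5.59, and Ccna2 overlaps Exosc9 at 4.37, 4.31, 3.96 and 3.62. Cdc45 overlaps Ufd1, at 17.2, 14.2, 15.4 and 14.4 FPKM, and Mcm7 overlaps Cops6, at 10.1, 15.0, 11.2 and 14.6. Reads from the stretch where such genes overlap cannot be told apart without strand.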

How the data were processed

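RNA of frozen islets was taken with Trizol and made into Illumina TruSeq libraries, per the labels' protocols. HTSeq 0.6.0 and GRCm38 are named in the submitters' processing notes, and no source used here gives the aligner, annotation or strand setting. Levels are FPKM as the authors deposited them, beside gene lengths. Multiplied by length and divided by each library's smallest step, 100% of nonzero values came out whole (tolerance 0.001) and served as read numbers. Those steps imply totals of 23869634 and 25927074 reads for wild-type and 25780368 and 21011933 for transgenic libraries. These differ from the reads summed over genes, which leaves a scaling factor of unknown nature in each library.

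Genes with at least 1 FPKM in at least 2 libraries entered limma 3.58.1 (R 4.3.3) as log2(FPKM + 1), using lmFit and a trended eBayes, genotype as the only term, 2-sided, Benjamini-Hochberg over all genes tested, threshold 0.05. This scale understates the change of low genes. Ratios of FPKM without a test use no pseudocount. Tests that model counts directly, other than voom, were not run. The wider set of genes with a mean of at least 5 reads was chosen after seeing the data. The functions were tested on simulated data. Named with values were the 4 genes of highest mean in each of 6 roles, every gene with separate genotypes, and Mki67, Top2a, Cdk1, Ccnb1 and Foxm1, and in each further cell cycle list the 4 genes of smallest p. Others are examples chosen after their values were seen. The members and lists were chosen with earlier results of these data known. Alternatives covered pseudocounts, filters, scaling, GC content, voom, the library number and leaving out each library. Promoter windows came from RefSeq (GRCm38.p6) and transcripts from GENCODE M21 (GRCm38), matched by symbol and by gene ID.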

Additional observations from a re-analysis of the deposited data

How the results depend on the processing

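The test called 0 proliferation genes in each of the 13 alternatives. Over all genes, it called 4 with the library number as a replicate block and the GC curve removed, and 249 with the replicate block in voom, against 0 otherwise. With the block, 2 of 36 proliferation genes had an unadjusted p under 0.05 in voom, Ccnb1 (adjusted p = 0.243) and Ccnb2 (adjusted p = 0.334), and 0 of 11 in limma without voom. The numbers are in the titles only, which do not say that they mark a shared animal or day, and the differences between numbers correlated between genotypes at r = 0.775 across 12716 genes, which are not independent replicates. The median log2 fold change of 0.06 was 0.10 with the limit and pseudocount at 0.1 FPKM, 0.033 with the replicate block and the GC curve removed, 0.21 in voom and 0.18 in voom with the replicate block, and ran from 0.019 to 0.11 without each library in turn. In voom the median of all genes was 0.08 and 0.07. The ratio of summed FPKM of 1.08 between genotypes was 1.11 on reads per library total and 1.17 over genes of G2 and mitosis, and ran from 1.00 (without wild type 2) to 1.16 (without wild type 1) leaving out a library. The number 2 to number 1 ratio of 0.877 was 0.843 on reads per library total, 0.922 without Pcna and 0.947 over genes of G2 and mitosis, and ran from 0.836 to 0.918 leaving out a library. The 0.947 joins a ratio of 0.857 in wild type with one of 1.03 in transgenic islets. Under 3 other scalings, chosen after seeing the data, 6, 8 and 5 genes had higher, separate transgenic values and 0 lower ones. Under the same scalings 11.4%, 15.3% and 9.98% of the wider set lay above and 11.2%, 7.59% and 13.0% below. Ccnb1, Ccnb2, Mcm5, Mcm6 and Mki67 were among the separate proliferation genes in each. Cdc45 was not on reads per library total or after division by the median. Of 148 log2 ratios of single genes recomputed without 1 library, 38 changed sign, and 9 genes kept theirs throughout. These 9 include the 6 genes with separate genotypes on the deposited scale. Such genes cannot change sign when 1 library is left out, so their constant sign adds nothing. The cause of these shifts was not tested. Depth limits the scarce genes most: the 3 reads of Aurkb in transgenic 2 have an exact Poisson interval of 0.619 to 8.77.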
